A study of Mus musculus with 3 samples.

Results

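The genes examined are 8 that link blood flow to vessel tone and clotting in the glomerular circulation: the vasoconstrictor peptide gene Edn1, its processing enzyme gene Ece1, the receptor genes Ednra and Ednrb, the nitric oxide synthase gene Nos3, the flow-responsive transcription factor genes Klf2 and Klf4, and Thbd, which encodes thrombomodulin. They were chosen by symbol, and all 8 were found among the 31058 gene rows of the files. Endothelial cells secrete endothelin-1 after Ece1 protein has cut its precursor. The Ednra receptor on smooth muscle contracts it, whereas the Ednrb receptor on endothelium releases nitric oxide and clears the peptide, and on smooth muscle it can contract it as well. Laminar shear stress acting through MEF2 factors induces Klf2 and Klf4, whose products raise Nos3 and Thbd and hold down Edn1 in cultured endothelium.

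Cells from glomeruli, the filters of the kidney, came from 3 healthy C57Bl/6 mice, 1 male, 1 female with an oestrogen receptor alpha knockout in renal progenitor cells (female ERaKO) and 1 female, and each gave 1 droplet library of RNA 3′ ends, counted by unique molecular identifiers (UMIs). The transgenes Pax2.rtTA and TetO.Cre were present in every mouse together with the reporter R26.Confetti, and the female ERaKO mouse carried ERalphaKO in addition. Doxycycline was given at 20 days, and tracing ended at 90 days. Cre is switched on by doxycycline in cells with an active Pax2 driver, so the deletion was directed at renal progenitors. Confetti reporter UMIs were found in 54.9% of male, 47.4% of female ERaKO and 55.1% of female parietal epithelial cells, in 18.3%, 11.6% and 20.1% of the podocytes of those libraries, in 11.8%, 7.34% and 8.06% of the Sox17 endothelial cells and in 7.37%, 2.0% and 2.60% of the capillary endothelial cells described below. Mesangial cells held them in 4.23%, 9.70% and 2.27% of cells. In the male library, 67 parietal epithelial cells with the reporter held 464 such UMIs. Its 24 Sox17 cells with the reporter held 32, and its 26 such capillary cells held 27. A background of free reporter RNA was not set, so these shares are no count of recombined cells. The targeted gene Esr1 gives no check of the label. Tags at the 3′ end can lie outside the deleted stretch, which was not examined. Parietal epithelial cells, with the largest reporter shares listed here, held too few Esr1 UMIs: 5 in male, 5 in female ERaKO and 0 in female cells. Levels are given in CPM, the UMIs per 1000000 UMIs of the class and library. Smooth muscle cells had Esr1 at 27.9 CPM in male, 21 in female ERaKO and 20.4 in female cells. A reporter UMI was found in only 2.66%, 2.90% and 2.44% of those cells. With 1 mouse per group there is no replicate. No test of a difference between groups can be made, and every interval below is a 95% interval that covers counting error only.

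After filtering, 3221 male, 2471 female ERaKO and 2847 female cells remained, with medians of 7325, 8039 and 8857 UMIs. Pairs of libraries shared 4 to 8 barcodes, of which 1 to 4 were kept. Cell classes were rebuilt from marker genes, because the files used here hold no annotation by the authors. Each name therefore stands for a podocyte-like, mesangial-like, smooth muscle-like or renin cell-like class, written without the ending. The 8 genes were left out of the genes used for clustering. Endothelial cells fell into 5 classes named here by their leading genes: Ehd3 capillary cells (353 male, 150 female ERaKO and 346 female), Sox17 cells with Fbln5 (203, 177 and 186), Calca cells with Fabp4 (122, 86 and 110), Gja5 cells with Dll4 (61, 38 and 16) and Dlk1 cells (13, 10 and 8). The label "arterial-type" held for the Sox17 cells in part. Their Sox17 level was 944 CPM in male, 988 in female ERaKO and 872 in female cells, but the arterial markers Gja5 and Hey1 stayed at or under 2.80 and 4.0 CPM there. Fbln5, Bmx and Sema3g were higher in Sox17 than in capillary cells of each library, whereas the arterial markers Efnb2 and Dll4 were lower. Efnb2 stood at 217 CPM in male, 233 in female ERaKO and 218 in female Sox17 cells. Capillary cells of those libraries had 573, 684 and 555 CPM. Of the peritubular or venous-type markers, Plvap, Calca and Igfbp3 were higher in Sox17 than in capillary cells and Nr2f2, Cd36 and Fabp4 lower. The Gja5 cells held the arterial markers low in Sox17 cells, with Gja5 at 306 CPM in male, 214 in female ERaKO and 418 in female cells and Dll4 at 281, 301 and 333 CPM.

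All 8 genes are protein coding. In GRCm38 coordinates Edn1 lies at chr13:42301476-42307990 on the plus strand, Ednra at chr8:77663031-77724464 on the minus strand, Ednrb at chr14:103814625-103844402 on the minus strand, Ece1 at chr4:137862237-137965229 on the plus strand, Nos3 at chr5:24364810-24384474 on the plus strand, Klf2 at chr8:72319033-72321656 on the plus strand, Klf4 at chr4:55527143-55532466 on the minus strand and Thbd at chr2:148404466-148408188 on the minus strand.

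Endothelin-1 transcripts were most abundant in the Gja5, Sox17 and Calca endothelial cells and low in Ehd3 capillary and Dlk1 cells. Edn1 stood at 501 CPM in male, 334 in female ERaKO and 416 in female Sox17 cells, where 88.2%, 79.7% and 82.8% of cells had a UMI. Its level in Ehd3 capillary cells was 25.6 CPM in male, 27.5 in female ERaKO and 28.5 in female cells, with a UMI in 10.8%, 12.7% and 12.4% of cells. Every library thus held far more Edn1 in Sox17 than in capillary cells: the within-library ratio averaged 3.87 ± 0.35 on the log2 scale of CPM + 1 (SD over the 3 libraries, which differ in sex or genotype), or 14.6-fold. Thinned to 4000 UMIs per cell, the shares were 70.0% in male, 58.8% in female ERaKO and 67.2% in female Sox17 cells, against 7.93%, 8.0% and 7.23% of capillary cells. Podocytes, the class used here for the background of free RNA, had an Edn1 UMI in 0.788% of male, 0.236% of female ERaKO and 0.272% of female cells, so the capillary share was above it in each library. Median depths were 7746 UMIs in male, 7378 in female ERaKO and 9192.5 in female podocytes, 5402, 8102 and 6520.5 in capillary cells and 9664, 9492 and 10943.5 in Sox17 cells.

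Calca cells stood between, at 304 CPM in male, 239 in female ERaKO and 147 in female cells. The Gja5 cells reached 577 CPM in male and 553 in female ERaKO libraries, against 209 CPM in the female library, whose 16 cells gave 27 Edn1 UMIs, 37.0% of them from 1 cell. Edn1 was also present in the parietal epithelial cells that line Bowman's capsule, at 71.8 CPM in male, 93.3 in female ERaKO and 86.9 in female cells, and in mesangial cells, at 35.4, 50.5 and 44.7 CPM. Smooth muscle cells had 3 Edn1 UMIs in the male, 1 in the female ERaKO and 0 in the female library, where 3 counts would be 3.22 CPM. In the order of mean levels, the Gja5 and Sox17 cells did not differ beyond their spread over libraries (446 ± 206 and 417 ± 83.2 CPM, SD, n = 3 libraries).

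**Figure D1:**
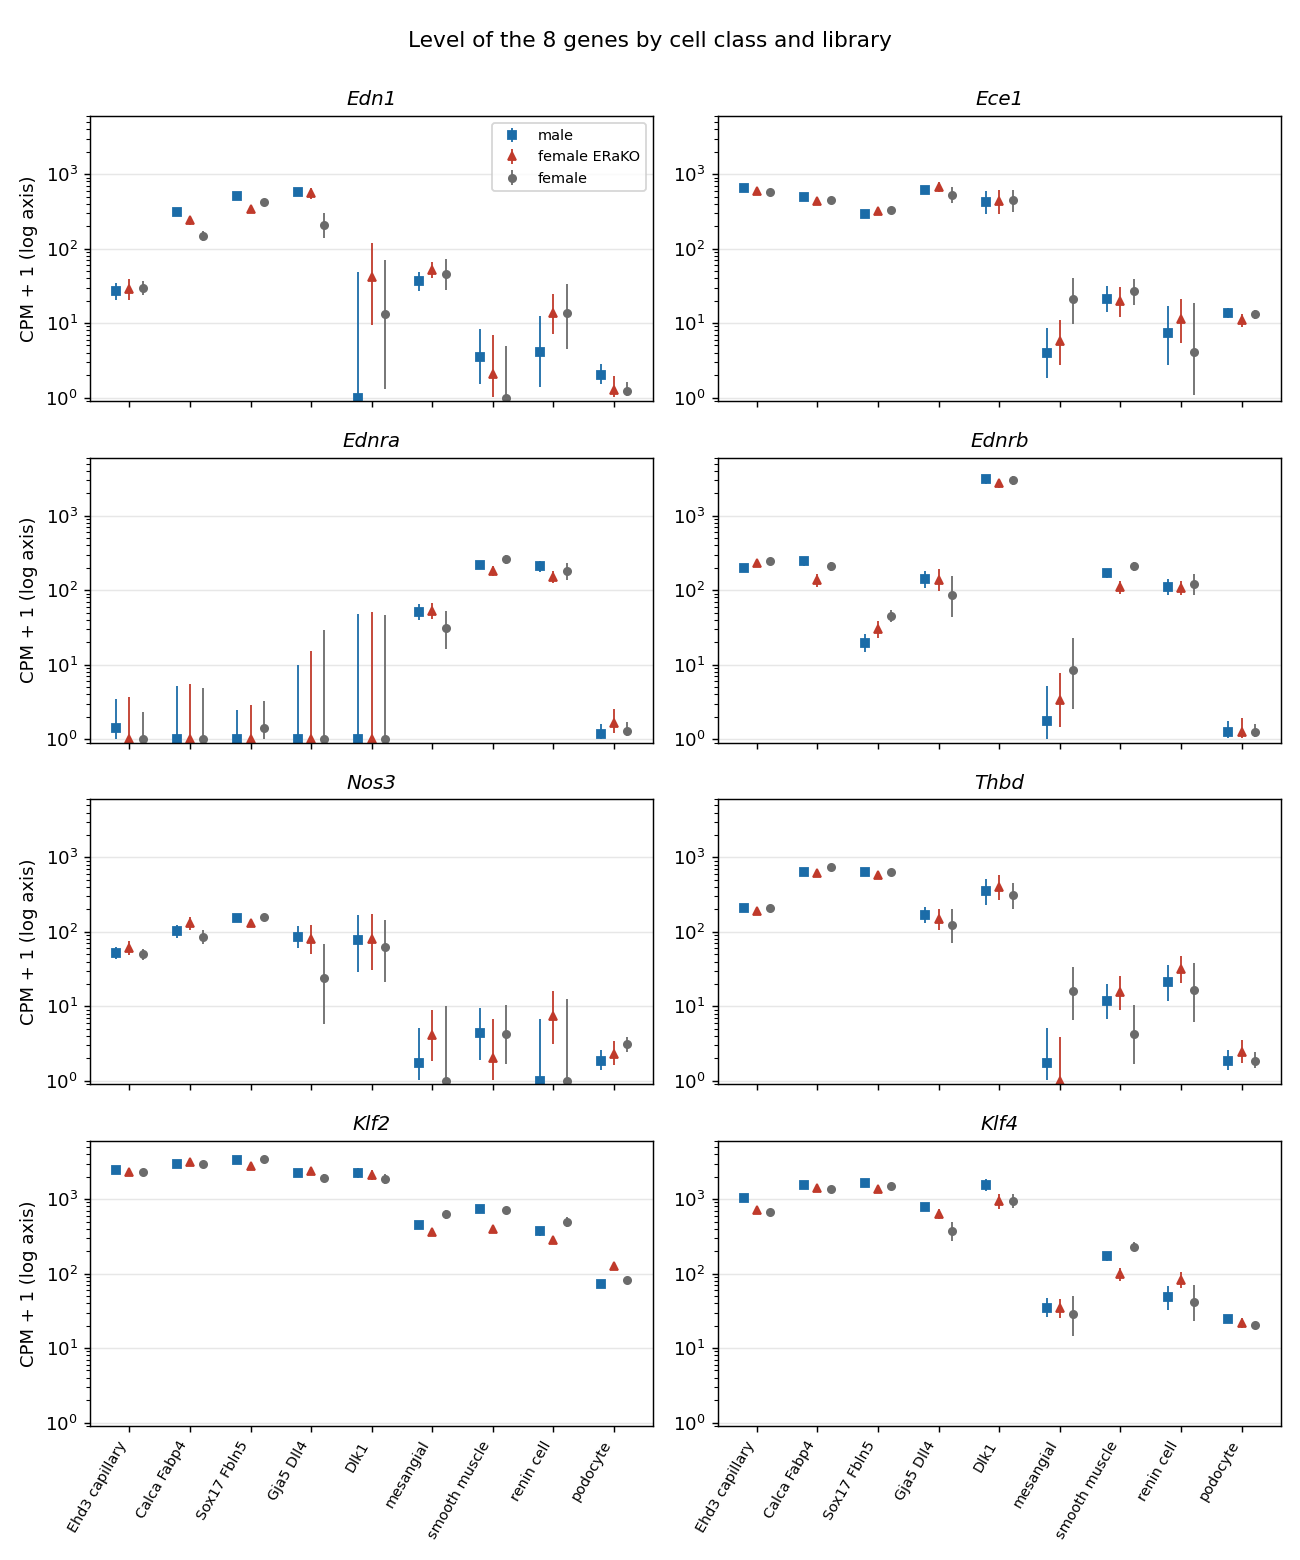
Level of each gene (CPM + 1, log axis) in 9 cell classes, with the male, female ERaKO and female libraries from left to right in each class and bars for the 95% counting interval. Edn1, Nos3 and Thbd stand higher in Sox17 than in Ehd3 capillary cells, Ednrb is highest in Dlk1 cells, and Ednra appears in mesangial, smooth muscle and renin cells (a count of 0 is drawn at 1).

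Ece1, whose product releases the active peptide, had the opposite order between Sox17 and capillary cells. Its level was 644 CPM in male, 585 in female ERaKO and 575 in female capillary cells, against 291, 318 and 328 CPM in Sox17 cells of those libraries. The ratio of Sox17 to capillary cells was -0.94 ± 0.18 (log2, SD over 3 libraries), and capillary cells were higher in each. Between these classes the transcripts of precursor and enzyme were thus opposed. The Gja5 cells had the highest mean of both genes over the 3 libraries, with Ece1 at 616 CPM in male, 667 in female ERaKO and 526 in female cells. Outside endothelium the class with the most Ece1 was the mononuclear phagocytes, at a mean of 60.1 ± 31.0 CPM (SD, n = 3 libraries), and podocytes were at 12.5 CPM in male, 9.84 in female ERaKO and 12.1 in female cells.

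The receptors divided the glomerular cells. Ednra, the contractile receptor, was found in mural cells and almost nowhere in endothelium: smooth muscle cells had 216 CPM in male, 181 in female ERaKO and 259 in female libraries. Renin cells, which sit in the wall of the afferent arteriole, had 210, 150 and 179 CPM in those libraries. Mesangial cells, the contractile cells between capillary loops, had 50.5 CPM in male, 52.0 in female ERaKO and 29.8 in female cells, from 67, 67 and 12 UMIs. Smooth muscle cells exceeded mesangial cells in all 3 libraries, by 2.31 ± 0.68 on the log2 scale (SD) or 4.96-fold. The 5 endothelial classes held 1 Ednra UMI in the male library, 0 in the female ERaKO library and 1 in the female library. A count of 3 would be 1.30 CPM in male, 2.17 in female ERaKO and 1.08 in female capillary cells, so a lower level was not detectable at this depth.

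Ednrb was on both sides. Its level was 198 CPM in male, 234 in female ERaKO and 243 in female capillary cells, and 170, 108 and 208 CPM in smooth muscle cells. In Sox17 cells it was 18.8 CPM in male, 29.0 in female ERaKO and 43.9 in female cells, lower than in capillary cells by 2.91 ± 0.44 on the log2 scale (SD over 3 libraries), or 7.54-fold. Edn1 and Ednrb were therefore opposed between the Sox17 and capillary classes, with more ligand and less receptor transcript in Sox17 cells of each library. Calca cells, also higher in Edn1 than capillary cells, did not differ from them in Ednrb beyond the spread over libraries (log2 -0.24 ± 0.54, SD). The Gja5 cells, with the highest mean Edn1, had a ratio of -0.92 ± 0.52 and a mean Ednrb of 121 CPM. Mesangial cells, which share Ednra with smooth muscle, had 1 Ednrb UMI in the male, 3 in the female ERaKO and 3 in the female library, in 1 cell each. A UMI of Ednrb was found in 52.4% of male, 68.0% of female ERaKO and 58.1% of female capillary cells (44.2%, 46.0% and 47.4% after thinning), against 0.236%, 0.236% and 0.204% of podocytes.

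The highest Ednrb level of any class was that of the Dlk1 cells, at 3079 CPM in male, 2747 in female ERaKO and 2981 in female cells. These are 31 endothelial cells in all, with the paternally expressed gene Dlk1 at 6390, 4957 and 4853 CPM and its neighbour Rtl1 at 322, 295 and 320 CPM, beside the capillary marker Ehd3 at 2306, 3577 and 2858 CPM. Each of the 31 cells held Ednrb: the median cell had 18 UMIs in the male, 22 in the female ERaKO and 25 in the female library, and the lowest had 3, 8 and 16. The median capillary cell had 1 in each library. The excess over capillary cells was 3.70 ± 0.22 on the log2 scale (SD over 3 libraries), or 13.0-fold, and it was present in 3 of 3 libraries. The same cells had Edn1 counts of 0 in the male, 3 in the female ERaKO and 1 in the female library. Their Ece1 (425, 429 and 443 CPM) lay between the levels of Sox17 and capillary cells, and their Klf2 (2242, 2117 and 1860 CPM) was the lowest of the 5 endothelial classes in each library.

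**Figure D2:**
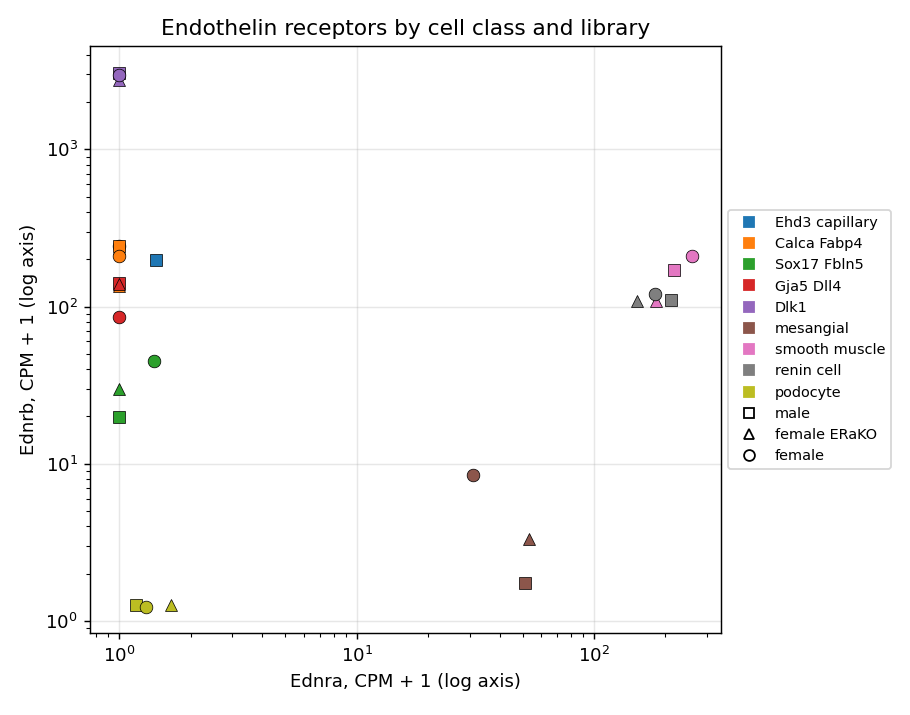
Ednra (x axis) against Ednrb (y axis), both as CPM + 1 on log axes, with 1 point per cell class and library; colour gives the class and the symbol the library. Endothelial classes lie at the left edge, with Dlk1 cells at the top, smooth muscle and renin cells at the right have both receptors, and mesangial cells have Ednra at 29.8 to 52.0 CPM with Ednrb at 7.46 CPM or less.

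Within smooth muscle, the receptors were not confined to separate cells. After thinning, both were detected in 19.1% of male, 16.7% of female ERaKO and 28.5% of female cells, against 20.1%, 14.1% and 25.4% if the detections were independent. Across these 188, 138 and 123 cells the Spearman correlation of the receptors was -0.02, 0.10 and 0.12, as a description of cells that share 1 library each.

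Nos3, the source of endothelial nitric oxide, and Thbd, the thrombin-binding anticoagulant, were, like Edn1 and unlike Ece1, higher in Sox17 than in capillary cells. Nos3 was at 153 CPM in male, 130 in female ERaKO and 157 in female Sox17 cells, against 50.7, 59.4 and 49.1 CPM in capillary cells of those libraries. Thbd was at 630 CPM in male, 578 in female ERaKO and 628 in female Sox17 cells, against 210, 190 and 206 CPM in capillary cells. The ratio of Sox17 to capillary cells was 1.45 ± 0.29 for Nos3 and 1.59 ± 0.01 for Thbd (log2, SD over 3 libraries). Calca cells had as much Thbd as Sox17 cells, at 636 CPM in male, 621 in female ERaKO and 733 in female cells. In podocytes the highest of the 3 libraries was at 2.10 CPM for Nos3 and 1.44 CPM for Thbd.

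Klf2 and Klf4 had the highest counts of the set in capillary, Sox17 and Calca cells. Klf2 stood at 2428 CPM in male, 2295 in female ERaKO and 2337 in female capillary cells and at 3397, 2818 and 3427 CPM in Sox17 cells. Klf4 stood at 1045 CPM in male, 717 in female ERaKO and 679 in female capillary cells, and at 1632, 1382 and 1513 CPM in Sox17 cells. Sox17 cells were higher in 3 of 3 libraries for both, by 0.44 ± 0.13 for Klf2 and 0.91 ± 0.26 for Klf4 (log2, SD). After thinning, both rose from cell to cell with the summed immediate early genes, which respond within minutes to stimulation or tissue dissociation. Spearman correlations for Klf2 were 0.56 in male, 0.56 in female ERaKO and 0.46 in female Sox17 cells. In capillary cells they were 0.38, 0.56 and 0.49. For Klf4 they were 0.43, 0.46 and 0.43 in Sox17 and 0.51, 0.30 and 0.42 in capillary cells. The part of the immediate early genes in these levels was not tested. Tags were counted at the 3′ end, so levels of different genes were compared without a length correction.

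Mesangial cells separated the pair of factors more than smooth muscle did. Klf2 was at 453 CPM in male, 362 in female ERaKO and 621 in female mesangial cells, where Klf4 was at 33.9, 33.4 and 27.3 CPM. In smooth muscle Klf2 was at 745 CPM in male, 392 in female ERaKO and 714 in female cells, and Klf4 at 169, 96.4 and 229 CPM. The 7 general endothelial markers summed to 276 CPM in male, 295 in female ERaKO and 365 in female mesangial cells, against 6538, 6564 and 6452 CPM in capillary cells, and Cdh5, which defines endothelium, was at 0, 1.55 and 34.8 CPM in mesangial cells.

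Promoters are shown for the transcription factors, the ligand and the receptors, although Ece1, Nos3 and Thbd also differed between Sox17 and capillary cells. They are the 250 bases before the transcription start in RefSeq on GRCm38.p6, read on the gene's strand and written 5′ to 3′ in lower case, with motif matches in capitals. Of the 8 genes, 6 had a promoter in the table, and Nos3 and Thbd had none. The windows are chr8:72318812-72319061 (plus strand) for Klf2, chr4:55532476-55532725 (minus) for Klf4, chr13:42301226-42301475 (plus) for Edn1, chr8:77724453-77724702 (minus) for Ednra and chr14:103843702-103843951 (minus) for Ednrb. The gene spans given earlier come from another annotation, whose starts differ for some genes. By those spans the whole Ednrb window and the 3′ ends of the Klf2 and Ednra windows lie inside the gene.
Klf2: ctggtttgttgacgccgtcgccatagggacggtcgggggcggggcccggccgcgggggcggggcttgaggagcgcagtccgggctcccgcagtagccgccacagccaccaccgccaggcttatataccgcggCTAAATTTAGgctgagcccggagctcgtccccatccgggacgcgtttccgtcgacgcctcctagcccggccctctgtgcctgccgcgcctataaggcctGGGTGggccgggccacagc
Klf4: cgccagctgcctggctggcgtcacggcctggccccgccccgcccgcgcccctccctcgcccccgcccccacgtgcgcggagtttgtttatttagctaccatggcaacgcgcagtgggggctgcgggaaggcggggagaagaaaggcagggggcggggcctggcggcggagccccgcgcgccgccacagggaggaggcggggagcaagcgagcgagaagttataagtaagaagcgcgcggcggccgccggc
Edn1: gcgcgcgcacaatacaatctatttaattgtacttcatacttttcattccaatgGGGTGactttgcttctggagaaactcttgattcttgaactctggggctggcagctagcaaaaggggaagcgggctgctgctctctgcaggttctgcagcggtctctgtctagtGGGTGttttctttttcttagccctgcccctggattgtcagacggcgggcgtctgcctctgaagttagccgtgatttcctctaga
Ednra: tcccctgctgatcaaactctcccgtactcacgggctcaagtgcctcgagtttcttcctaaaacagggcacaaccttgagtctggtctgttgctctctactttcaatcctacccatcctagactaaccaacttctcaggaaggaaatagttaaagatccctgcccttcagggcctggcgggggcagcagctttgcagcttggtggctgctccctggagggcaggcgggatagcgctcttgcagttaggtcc
Ednrb: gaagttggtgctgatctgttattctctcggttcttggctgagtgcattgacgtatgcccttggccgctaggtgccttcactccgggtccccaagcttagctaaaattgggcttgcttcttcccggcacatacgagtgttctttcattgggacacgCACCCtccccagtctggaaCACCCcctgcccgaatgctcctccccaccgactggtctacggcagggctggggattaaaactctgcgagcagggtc

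The motifs were searched on both strands. They were the MEF2 site, which starts with CTA and, after any 4 bases, ends with the reverse complement of those letters, and the KLF core, CACCC on 1 strand. The others were the GATA site with the letters AGATAA, the AP-1 site with the letters TGANTCA, the palindromic oestrogen response element and its single arm, GGTCA. Each arm of the full oestrogen element is itself a match of the single arm, and no other pair overlaps by construction. The Klf2 promoter holds the MEF2 match CTAAATTTAG at position -118, a motif present in 3.69% of 32851 RefSeq windows of 300 bases (250 before to 50 after the start), and a KLF core at -19. Edn1 holds KLF cores at -197, -84 and 34 and a GATA match at 9, the last 2 beyond the printed stretch. Ednrb holds KLF cores at -95, -76 and 27. No motif was found for Klf4 or Ednra in their windows, and the full oestrogen element was in no window of the 6 genes and in 0.0700% of all windows. Ece1, whose windows are not printed, held KLF cores and the only match of the oestrogen single arm, TGACC at -201 from an annotated start. The single arm was in 40.5% of all windows. The KLF core is common, in 57.5% of all windows, and the GATA motif was in 11.2%. A match is a stretch of letters in the window and says nothing of binding.

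The comparison of male with female glomeruli asked where sex was associated with the level of these genes. A gene was compared in a class if the 2 libraries had at least 20 summed UMIs, and was called at a difference of 1.5-fold or more. Within the capillary cells, 1 of 7 compared genes was called, Klf4, with 1045 CPM in male against 679 CPM in female cells. The log2 ratio was 0.62 (counting interval 0.53 to 0.71), and 90.7% of male against 76.3% of female cells had a Klf4 UMI after thinning (94.3% and 87.6% before). By the same rule 9.77% of 10111 genes were called in this comparison. Klf4 fell below 1.5-fold under 4 of 10 alternative settings, with 0.50 as the lowest log2 ratio. The list of 15 immediate early genes, which rise within minutes of stimulation or tissue dissociation, summed to 13489 CPM in male against 10345 CPM in female capillary cells. Its 14 compared genes had a median log2 ratio of 0.38 with none called, and its part in the Klf4 difference was not tested. Edn1, Ece1, Nos3, Klf2, Thbd and Ednrb had log2 ratios between -0.30 and 0.16 in capillary cells.

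Ednrb was the 1 called gene of 7 in Sox17 cells, where 9.06% of 10118 genes were called. It was lower in male cells, at 18.8 CPM from 47 UMIs against 43.9 CPM from 110 UMIs in female cells. The log2 ratio was -1.18 (-1.75 to -0.72), and 5.91% of male against 13.4% of female cells had a UMI after thinning (13.8% and 23.7% before). It lay past 1.5-fold in all 10 alternative settings, between -1.42 and -0.63, although 18.2% of the female UMIs came from 1 cell. In capillary cells the male level of Ednrb was also the lower of the pair (198 against 243 CPM), with a log2 ratio of -0.30 (-0.47 to -0.12) that was not called. Edn1 in Sox17 cells was at 501 CPM in male against 416 CPM in female cells, a log2 ratio of 0.27 that was not called. The makeup of the Sox17 class differed between libraries, with Plvap at 145 CPM in male, 411 in female ERaKO and 279 in female cells. Igfbp3 was at 130, 53.5 and 133 CPM and Fbln5 at 544, 517 and 594 CPM. The part of this makeup in the Ednrb difference was not tested.

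Calca cells had 1 called gene of 7, against 14.2% of 8166 genes. Edn1 was at 304 CPM in male against 147 CPM in female Calca cells, a log2 ratio of 1.04 (0.75 to 1.35). The makeup of the class differed between libraries at the same time, with Calca itself at 1141 CPM in male, 1441 in female ERaKO and 647 in female cells, and Ehd3 at 1423, 1008 and 1692 CPM. When the 8 genes were allowed among the clustering genes, the class shrank and the Edn1 ratio was 0.37. The part of the class makeup in the Edn1 difference was not tested.

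In mesangial cells 1 of 4 compared genes was called (19.4% of 8209 genes), Ednra, at 50.5 CPM in male against 29.8 CPM in female cells. Its log2 ratio of 0.74 had an interval of -0.14 to 1.78, so 67 against 12 UMIs did not separate the libraries. Mesangial Klf2 was at 453 CPM in male against 621 CPM in female cells, a ratio of -0.46 that was not called but was past 1.5-fold under 3 alternatives, with -0.81 as the lowest. Smooth muscle had no call among 5 compared genes, where 17.5% of 8696 genes were called, and Klf4 was the farthest from 0, at 169 CPM in male against 229 CPM in female cells (log2 -0.44). With finer clustering, at resolution 2, its ratio was -1.23. None of 4 was called in renin cells (23.8% of 5792 genes). Among the 16 female Gja5 cells, the Edn1 and Klf4 levels were too thin for a stable ratio (log2 1.46 and 1.07, male over female), and their immediate early sum was 12918 CPM in male against 4303 CPM in female cells.

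**Figure D3:**
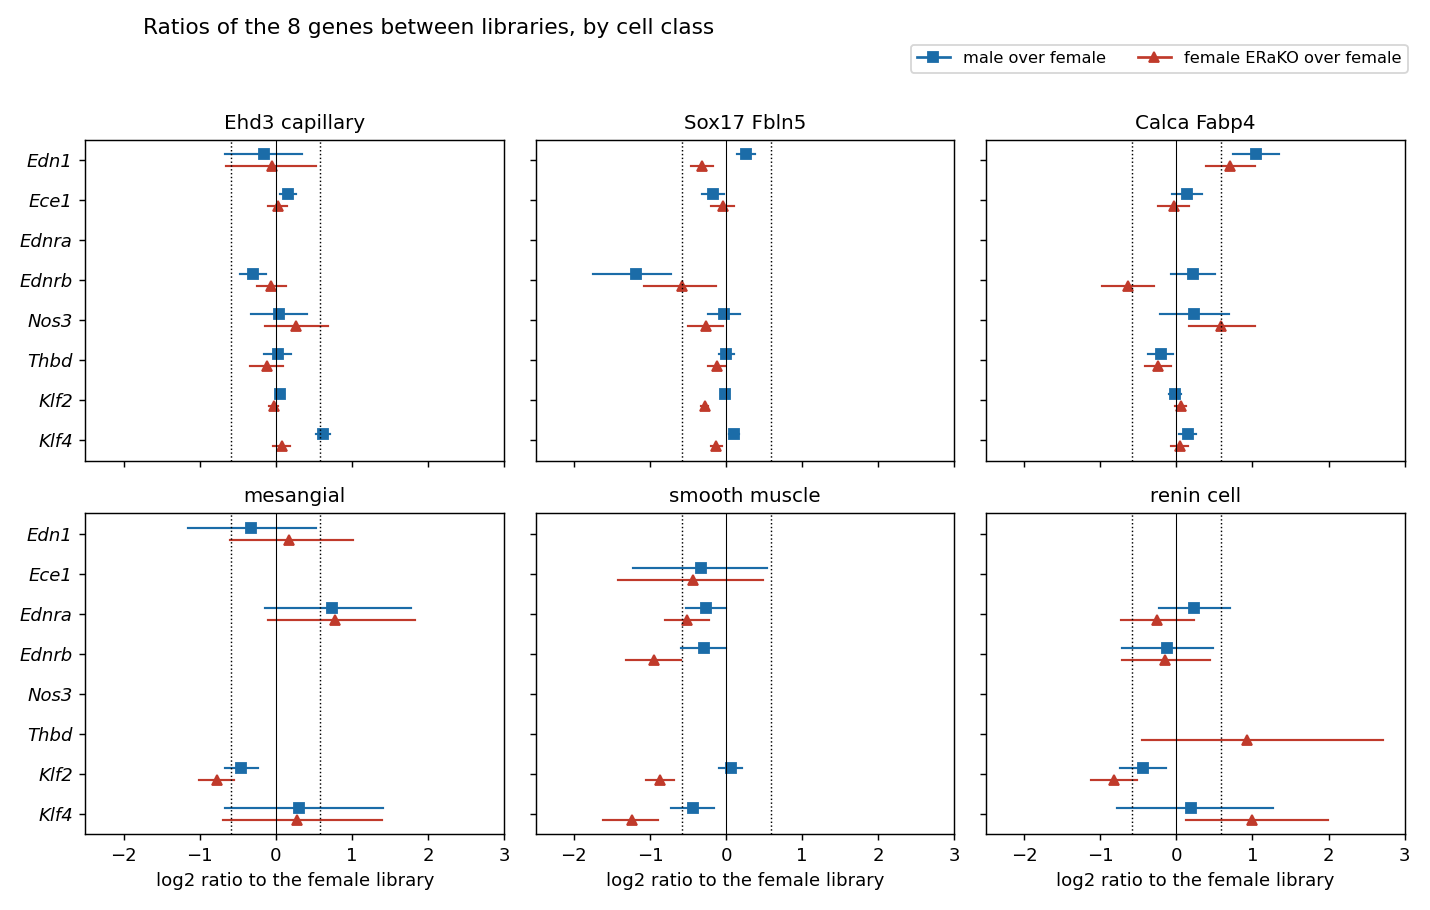
Log2 ratio (CPM + 1) of each gene with at least 20 summed UMIs in 6 cell classes, for male over female (squares) and female ERaKO over female (triangles), with 95% counting intervals; dotted lines mark 1.5-fold. Klf4 in capillary cells and Ednrb in Sox17 cells differ in male over female, and Ednrb, Klf2 and Klf4 lie below the left line in female ERaKO smooth muscle.

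The comparison of the female ERaKO with the female mouse asked whether loss of the receptor in progenitors was associated with differences in these genes. Both comparisons share the female library, so their values are not independent. Capillary cells and Sox17 cells had no called gene among 7 compared in each, where 13% of 9812 and 11.5% of 9944 genes were called. Klf2 was at 2818 CPM in female ERaKO against 3427 CPM in female Sox17 cells, a log2 ratio of -0.28 (-0.33 to -0.23). Ednrb was at 29.0 against 43.9 CPM there, a ratio of -0.58 that lay just short of 1.5-fold and was past it under 7 of 10 alternative settings. Capillary Klf4, called in the male comparison, was at 717 CPM in female ERaKO against 679 CPM in female cells (0.08, -0.03 to 0.19). Markers of mononuclear phagocytes summed to 216 CPM in female ERaKO against 10.8 CPM in female capillary cells, with 2 of the 6 markers at 0 in each.

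Smooth muscle had 3 called genes of 5 compared, against 19.4% of 8338 genes, and all 3 were lower in the female ERaKO library, as were 10.5% of genes. Ednrb was at 108 CPM in female ERaKO against 208 CPM in female cells, a log2 ratio of -0.94 (-1.31 to -0.60). Klf2 was at 392 against 714 CPM, a ratio of -0.86 (-1.05 to -0.68). Klf4 was at 96.4 against 229 CPM, a ratio of -1.24 (-1.62 to -0.89). Ednra, the other receptor, was at 181 against 259 CPM, and its ratio of -0.51 (-0.80 to -0.23) was not called. The male library stood near the female one for Klf2 (745 CPM) and between the females for Ednrb (170 CPM).

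The immediate early genes were also lowest in the female ERaKO library in smooth muscle. They summed to 14109 CPM in male, 7901 in female ERaKO and 14524 in female cells, and 10 of 13 compared genes were lower in female ERaKO over female, with a median log2 ratio of -1.18 against -0.03 over all genes. From cell to cell, thinned to 4000 UMIs, Klf2 had a Spearman correlation with the summed list of 0.65 in male, 0.32 in female ERaKO and 0.55 in female smooth muscle, and Klf4 one of 0.55, 0.47 and 0.47. The Klf2 ratio was -0.54 in the larger smooth muscle cluster alone and -0.34 under the stricter cell filter, both short of 1.5-fold, while Klf4 stayed between -1.34 and -0.75 and Ednrb between -1.37 and -0.87 over the 11 alternatives. Markers of endothelium summed to 257 CPM in female ERaKO against 218 CPM in female smooth muscle, with 2 of 7 markers at 0 in the female library. Markers of smooth muscle summed to 28270 CPM in female ERaKO against 18022 CPM in female cells of the class, Ren1 was at 5219 against 2315 CPM and Fabp4 at 128 against 481 CPM. The smaller of its 2 clusters held 55 of 138 female ERaKO against 29 of 123 female cells. The part of the immediate early genes and of this makeup in these differences was not tested.

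Mesangial cells had 2 called genes of 4, where 21.2% of 8192 genes were called. Klf2 was at 362 CPM in female ERaKO against 621 CPM in female cells, a log2 ratio of -0.78 (-1.0 to -0.55), and Ednra at 52.0 against 29.8 CPM, a ratio of 0.78 (-0.10 to 1.83) whose interval includes 0. The immediate early genes did not share the direction of Klf2 here: 9 of 13 were higher, with sums of 6737 CPM in female ERaKO against 3383 CPM in female cells. The female class held 44 cells, 1 of which gave 22.8% of its Klf2 UMIs, and its Cdh5 and Pecam1 levels (34.8 and 24.9 CPM) exceeded those of the female ERaKO class (1.55 and 6.21 CPM). With that cell and the top cell of the female ERaKO library left out, the Klf2 ratio was -0.69, and with called doublets kept it was -0.14. The part of endothelial RNA in the Klf2 difference was not tested.

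Renin cells had 3 called genes of 5 (26% of 6127 genes). Klf2 was at 281 CPM in female ERaKO against 497 CPM in female cells, a log2 ratio of -0.82 (-1.13 to -0.52) that was between -1.20 and -0.62 over 10 alternatives. Klf4 was at 82.1 CPM from 64 UMIs against 40.9 CPM from 13 UMIs, a ratio of 0.99 that was negative under 3 alternatives, and Thbd rested on 24 against 5 UMIs, with a ratio of 0.93 that was -1.05 with doublets kept. In podocytes 1 of 5 compared genes was called (6.4% of 11561 genes): Klf2, at 126 CPM in female ERaKO against 80.2 CPM in female cells, a ratio of 0.64 (0.53 to 0.77). The immediate early genes summed to 7826 CPM in female ERaKO against 5502 CPM in female podocytes, and their part in the Klf2 difference was not tested. A Klf2 UMI was found in 34.9% of female ERaKO and 28.5% of female podocytes (25% and 16.1% after thinning). In male over female podocytes the 1 call of 5 (3.94% of 11738 genes) was Nos3, at 0.863 CPM from 10 UMIs against 2.10 CPM from 36 UMIs. Podocytes are the class used here for the background of free RNA, so a difference at this level was not told apart from background.

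Calca cells had 3 called genes of 7 (17.6% of 8132 genes). Edn1 was at 239 CPM in female ERaKO against 147 CPM in female cells (log2 0.70, 0.38 to 1.03), Nos3 at 129 against 85.5 CPM (0.59, 0.16 to 1.03), and Ednrb at 135 against 210 CPM (-0.63, -0.98 to -0.29). With the 8 genes among the clustering genes, the 3 ratios were 0.03, 0.13 and -0.31, so all 3 calls depended on how the class was drawn. With called doublets kept, the class held 0 cells, against 318 as reported. The Calca ratios of both comparisons therefore have no value under that alternative. Nos3 was also short of 1.5-fold under TMM scaling (0.58), where Edn1 and Ednrb were not.

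**Figure D4:**
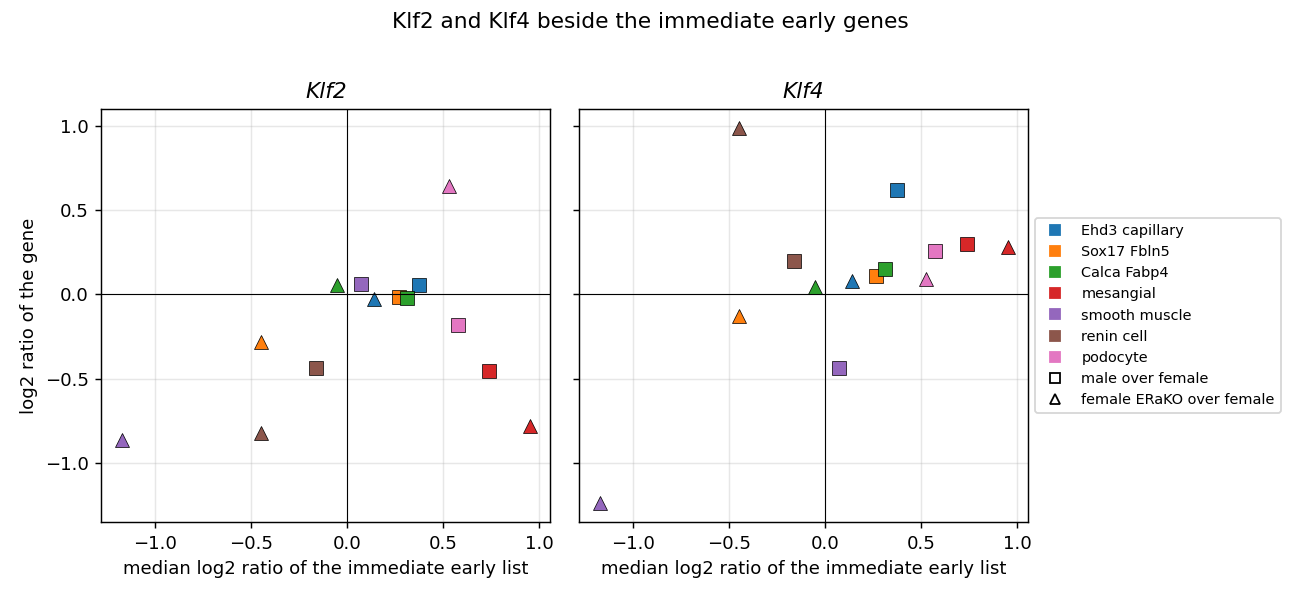
Log2 ratio of Klf2 (left) and Klf4 (right) on the y axis against the median log2 ratio of the immediate early list on the x axis, by cell class (colour), for male over female (squares) and female ERaKO over female (triangles), all over 1 female library. Female ERaKO smooth muscle is the lowest point for both genes and for the list, and mesangial Klf2 lies below 0 where the list lies above 0.

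Other genes of these pathways, a list of 57 from endothelin processing to nitric oxide supply and response, flow sensing, the Mapk7 and Mef2 route, clotting, connexins and receptor signalling, had medians near those of all genes in endothelial cells. For male over female, 36 genes were compared in capillary cells, of which 1 was higher and 2 were lower, with a median log2 ratio of -0.06 against 0.00022 over all genes, of which 4.32% were higher and 5.45% lower. In Sox17 cells 4 of 35 were higher and 1 lower (median -0.08 against 0.02), where 4.72% of all genes were higher and 4.34% lower. For female ERaKO over female, 3 of 36 were higher and 5 lower in capillary cells (median 0.08 against 0.05), where 7.28% of all genes were higher and 5.72% lower. In Sox17 cells 1 of 35 was higher and 5 lower (-0.02 against 0.03), where 5.73% of all genes were higher and 5.81% lower. The 5 compared genes of the Mapk7 and Mef2 route and the flow sensors, 5 in capillary and 6 in Sox17 cells, had no call in either comparison. Of 5 further endothelin processing genes, none reached 20 UMIs in capillary cells.

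Among the genes with 100 or more summed UMIs, Nostrin, which encodes a protein that binds nitric oxide synthase, was higher in male capillary cells (570 against 372 CPM in female cells, log2 0.61). S1pr1, the receptor for the lipid sphingosine-1-phosphate that tightens endothelial barriers, was lower in female ERaKO capillary cells (184 against 298 CPM in female cells, -0.69) and in Sox17 cells (308 against 525 CPM, -0.77). Vcam1, a leukocyte adhesion gene, was higher in female ERaKO capillary cells at 37.0 against 23.8 CPM (0.61). Ptgs2, which encodes a prostaglandin synthase, was lower in Sox17 cells of the male (28.0 CPM) and the female ERaKO library (34.0 CPM) than of the female library (57.1 CPM). Gja4, a gap junction gene, was at 270 CPM in male against 159 CPM in female Sox17 cells (0.76). Icam1 (16.0 against 35.5 CPM) and Plat, the tissue plasminogen activator gene (89.6 against 147 CPM), were lower in female ERaKO than in female Sox17 cells. Plat was lower in Calca cells too, at 438 CPM in female ERaKO against 1079 CPM in female cells, a class whose capillary markers differed between these libraries.

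In mural cells Ddah1, whose product degrades an inhibitor of nitric oxide synthesis, was higher in both comparisons. Its smooth muscle level was 67.5 CPM in male, 82.8 in female ERaKO and 36.5 in female cells, and its renin cell level 132, 128 and 69.2 CPM. Prkg1, the cyclic GMP-dependent kinase gene, was at 197 CPM in male against 119 CPM in female mesangial cells (0.72), and Ddah2 at 94.8 CPM in female ERaKO against 59.7 CPM in female cells (0.66). Gucy1b1, a subunit of the nitric oxide receptor, was at 262 CPM in male against 151 CPM in female renin cells (0.79).

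Patterns over classes placed each gene beside others. Only classes with at least 30 cells in each library were used, which left out the Gja5 and Dlk1 cells. The Gja5 cells had the highest mean Edn1 and Ece1, and the Dlk1 cells the highest mean Ednrb. Pearson correlations of log2 levels were taken over 33 class by library units (11 classes in 3 libraries, which share library and depth). They were 0.89 between Klf2 and Thbd, 0.88 between Ece1 and Klf4, 0.87 between Ece1 and Nos3, and 0.43 between Edn1 and Klf2. Among 7479 genes the closest to Thbd was Sox17 (0.94), to Nos3 Dhh (0.95), to Edn1 Afdn (0.87), to Klf2 Stard9 (0.95), to Klf4 Emp1 (0.93), to Ece1 Rtp3 (0.93), to Ednrb 4631405J19Rik (0.92) and to Ednra 1500009L16Rik (0.98). Within Sox17 cells, the cell-to-cell Spearman correlation of Klf2 with Thbd was -0.08 in male, -0.06 in female ERaKO and -0.01 in female cells, and of Klf2 with Edn1 0.11, 0.12 and 0.12. In capillary cells the correlation of Klf2 with Thbd was 0.08 in male, 0.16 in female ERaKO and 0.17 in female cells, and in Calca cells it was 0.10, 0.20 and 0.01.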

How the data were processed

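The authors deposited unnormalised UMI counts for each cell, in barcode lists they had already filtered by a rule not given in the sources used here. The tools named are Cell Ranger 6.1.2 with STAR 2.7.5a, and the build is mm10, per the submitters' processing notes. The count totals were 44585342 (male), 47522141 (female ERaKO) and 44942380 (female). Positions came from an annotation of GRCm38, the assembly mm10 names, with 31011 of 31058 gene IDs matched.

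Cells were kept from 500 detected genes up and to a mitochondrial share of 25%, and doublets called by the Scrublet method of scanpy 1.11.5 (112, 142 and 53 cells) were removed. Cells were clustered with leidenalg 0.10.2 on 30 components of 2000 variable genes at resolution 1 into 27 clusters, without the 8 genes. Classes were named from marker lists, with minima set after the clusters were seen. Cells named endothelial were clustered again at resolution 0.4. Endothelial cells with markers of another class were left out of the 5 classes.

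Counts were summed per class and library and scaled to CPM. Ratios are log2(CPM + 1), with exact conditional Poisson intervals of the counts, and shares have exact binomial intervals. All 8 genes are described; of the 57 other genes, those at least 1.5-fold apart with 100 summed counts, at most 4 each way per class and comparison, were eligible to be named. Likeness used the 3 highest correlations per gene, of which the first is given. The genes and lists were chosen with earlier results of these data known. Alternatives covered scaling (TMM of edgeR 4.0.16, median of ratios), pseudocount, count minimum, cell filter, doublets, clustering and single cells. Methods were tested on simulated data. Tools were R 4.3.3 and Python 3.11.15 with pandas 2.3.3, scipy 1.17.1 and numpy 2.4.6.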

Additional observations from a re-analysis of the deposited data

Results flagged for a closer look

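In female ERaKO over female, Klf2 was higher in podocytes (log2 0.64) and lower in mesangial (-0.78), smooth muscle (-0.86) and renin cells (-0.82). These opposite directions put the podocyte ratio above the mesangial one by 1.42, above the smooth muscle one by 1.51 and above the renin cell one by 1.46. Klf4 was higher in renin cells (0.99, from 64 against 13 UMIs) and lower in smooth muscle (-1.24), a gap of 2.23. Renin cell Klf4 was negative under 3 alternatives, down to -1.38, and mesangial Klf2 was -0.14 with doublets kept. The podocyte ratio was computed under the reported settings only. None of these differences was tested, since each library is 1 mouse.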

How the results depend on the processing

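Member calls were counted over 32 pairs of gene and class (capillary, Sox17, mesangial and smooth muscle), with 2 higher and 1 lower in male over female and 1 higher and 4 lower in female ERaKO over female. Of all compared genes in these classes, 9.06% to 21.2% were called. List calls over 114 pairs were 5 higher and 3 lower, and 4 higher and 10 lower. They cover capillary and Sox17 cells, where 9.06% to 13% of all compared genes were called. Both pair counts include genes with too few UMIs to be compared, which could not be called. Calls per pair are thus below calls per compared gene. The share over all genes was not computed under the alternatives. At a minimum of 100 summed counts, 1 member was higher in male and 0 in female ERaKO, and the list had 3 higher and 1 lower, and 1 higher and 6 lower. Under a stricter cell filter (1000 detected genes, mitochondrial share up to 10%), members had 1 higher and 7 lower in male and 5 higher in female ERaKO. Keeping doublets gave 1 and 5, and 3 higher in female ERaKO, with 6 list genes lower there. Resolution 2 gave 1 and 11 in male, and 3 and 9 in female ERaKO. Allowing the members to cluster gave 1 and 6, and 3 higher, with 6 list genes lower. The mean of each cell's own CPM gave 2 lower in male and 2 higher in female ERaKO, and leaving out the top cell of each library 2 higher in female ERaKO. Under the cell filter, doublet and both clustering alternatives, 24 to 35 cells that carry no class name in the reported clustering joined the mesangial class. The 24 were 2 male, 15 female ERaKO and 7 female cells, and the 35 with doublets kept were 4, 15 and 16. An unnamed cluster with the size and split of the 24 scored 6.09 for mesangial and 5.47 for endothelial markers. The part of these cells in the mesangial values was not tested. Mesangial Klf4, on few UMIs, lay between -1.09 and 1.71 in male over female over the alternatives (0.30 as reported). Of 686 single values under alternatives, 634 stayed inside the reported counting interval and 48 left it. The other 4 changed sign where that interval excluded 0. Such intervals are wide where UMIs are few, so staying inside does not mean a small move. The 69 values at the minimum of 100 summed counts could not move, because that setting changes calls only. Renin cell Klf2 in male was 0.067 under the stricter cell filter (-0.44 as reported), and renin cell Klf4 in female ERaKO was -0.27 there, -1.38 with doublets kept and -0.68 with members clustered. The cause was not tested. The larger smooth muscle cluster was chosen after seeing the data. In every alternative run, 7 of the 8 genes were highest in an endothelial class. No paired analysis was possible because each group has 1 library.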

Other observations

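Parietal epithelial cells, of which 54.9% of male, 47.4% of female ERaKO and 55.1% of female cells held a reporter UMI, expressed Klf4 at 281 CPM in male, 198 in female ERaKO and 151 in female cells. Their immediate early genes summed to 17783 CPM in male, 14691 in female ERaKO and 10663 in female cells, in the same order of libraries, and their part in the Klf4 levels was not tested. Capillary cells made up 45.5% of male, 31.2% of female ERaKO and 49.6% of female endothelial cells, and Sox17 cells 26.2%, 36.9% and 26.6%.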
